A study of Mus musculus with 2 samples.

Results

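Kitl, Wt1, Aard, Pdgfra, Mylk and Myh11 are genes by which the somatic cells of the testis are recognised: Kitl, Wt1 and Aard mark Sertoli cells, Pdgfra marks Leydig cells, and Mylk and Myh11 mark peritubular myoid cells. They were taken as the rows of the authors' peak list that carry these symbols, and they are 6 of the 3258 genes named there. Together they hold 25 of the 16331 peaks. Of all 14867 protein-coding genes on chromosomes with a peak, 2799 (18.8%) had one. That each has a peak is how they were chosen, so the presence of a peak in them is a description and is not tested.

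The peaks come from RNA immunoprecipitation sequencing, in which an antibody recovers a protein with the RNA bound to it. The protein was BUD31, a component of the spliceosome. There was 1 library recovered with the antibody to BUD31, and 1 of input, which used 10% of the total RNA. Both came from germ cells of C57BL/6J mouse testis at postnatal day 14, with no genetic change or drug named in the labels, and the number of animals pooled is not stated. The germ cells were released by enzymatic digestion of the tissue in successive steps, and the labels name no sort or marker that would remove somatic cells.

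A seminiferous tubule holds germ cells that are nursed by Sertoli cells and wrapped in contractile peritubular myoid cells, while Leydig cells between the tubules make androgen. Sertoli cells supply KIT ligand to the KIT receptor on differentiating spermatogonia, and myoid cells squeeze the tubule with the same myosin machinery as smooth muscle. Removal of introns takes place in the nucleus, so RNA that still holds introns is mostly young transcript, and the spliceosome acts on it there.

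The list gives each peak's position on the mm10 genome, an annotation class and a gene, with no strand, read count, fold or score. The depth of both libraries is therefore unknown, and a gene can be described only by how many peaks it has, where they lie and how much of its length they cover. Each group was a single library, so differences have no replicate check and nothing was tested. A peak also does not say which cells its RNA came from, and RNA of these genes made by germ cells cannot be told apart from RNA of somatic cells carried into the preparation, nor fewer somatic cells from less RNA per cell.

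The 6 genes fell into 2 patterns. Mylk and Kitl carried 15 and 6 peaks, spread along their introns. The other 4 genes had 1 peak each, in an intron of Wt1 and Myh11 and in the 3′ UTR of Aard and Pdgfra. Of all 25 peaks, 22 were annotated as intron (88%, Wilson 95% interval 70.0% to 95.8%), against 81.8% of all peaks in the list. Another 2 were in a 3′ UTR and 1 was in an exon. None was intergenic (interval 0% to 13.3%), a class that took 6.72% of all peaks, a value that this interval holds. The intervals given here cover counting error over peaks or genes only, and neither are replicates. Most of the 25 peaks lie in Mylk and Kitl, so the intron share and its interval mainly describe those 2 genes.

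**Figure D1:**
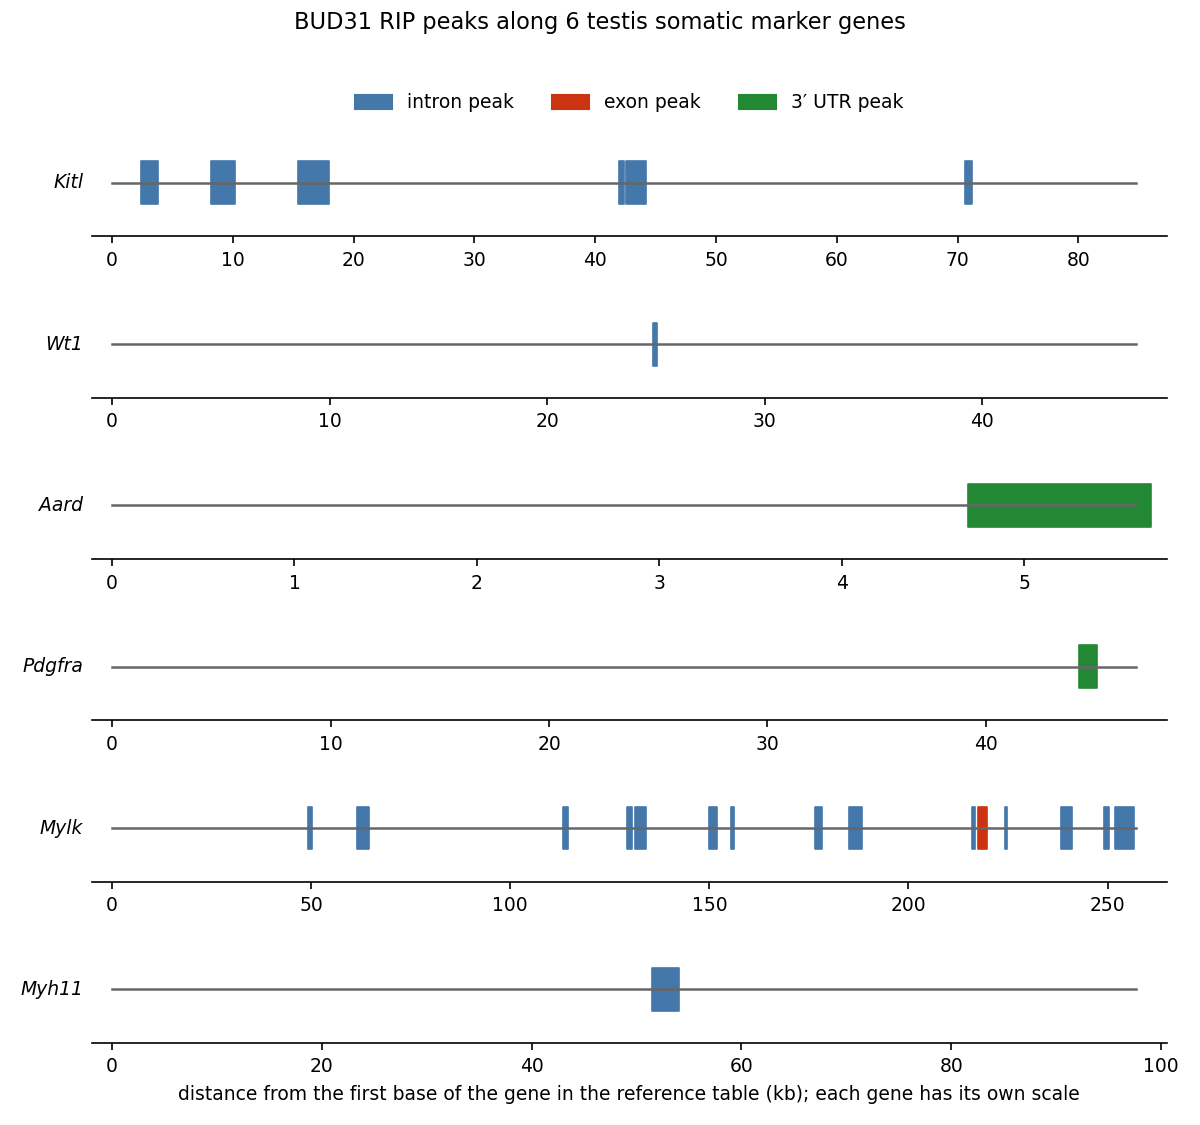
Peaks along each gene, with the distance from the first base of the gene in kb on the x axis and a separate scale for each gene. The grey line is the gene, and blue, red and green blocks are intron, exon and 3′ UTR peaks. Kitl and Mylk carry 6 and 15 blocks along the gene, whereas the single 3′ UTR peaks of Aard and Pdgfra lie at the far end.

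Kitl encodes KIT ligand, also called stem cell factor, which Sertoli cells present to spermatogonia. The gene spans 84.8 kb of chromosome 10, 100015615 to 100100416, on the plus strand. Its 6 peaks covered 8600 bp, or 10.1% of the gene, and all were annotated as intron. No other gene of the reference table overlaps any of them.

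The Kitl peaks formed 3 groups. In the first, peaks of 1400, 2000 and 2600 bp began 2.39, 8.19 and 15.4 kb from the start of the gene. After a gap of 24.0 kb came peaks of 400 and 1600 bp, separated by 0.2 kb, which is a single bin of the authors' positions on that chromosome (200 bp). After a further 26.4 kb came the last, of 600 bp, which began at 70.6 kb. The widest peak thus lay early in the gene, with its centre at 19.7% of the length, and the last 13.6 kb held none.

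The receptor of this ligand is the product of Kit, which germ cells express. Kit had 3 intron peaks on chromosome 5 that covered 7200 bp, or 8.81% of its 81.7 kb. Ligand and receptor gene are thus of like span, at 84.8 and 81.7 kb, and had like covered shares, without a test of that likeness. The chromosomes differ in how often genes have a peak, at 30.4% of protein-coding genes on chromosome 10 and 39.2% on chromosome 5. They differ in covered share too. Over genes with a peak within 2-fold of the Kitl span on chromosome 10, the median was 4.39%. Over those within 2-fold of the Pdgfra span on chromosome 5, a set that holds Kit, it was 10.9%. Kitl lay above the first median and Kit below the second.

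Wt1 encodes a zinc finger transcription factor that Sertoli cells need from the fetal gonad onwards. It spans 47.1 kb of chromosome 2, 105126529 to 105173614, and had 1 intron peak, at 105151401 to 105151600. That peak is 200 bp wide, which is 1 bin and the narrowest a peak can be there, and it covered 0.425% of the gene. On chromosome 2 such single-bin peaks made up 141 of 367 (38.4%). Without peaks of 1 bin Wt1 has none, while the other 5 genes keep theirs, and 18.0% of all coding genes have one.

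Aard encodes an alanine and arginine rich protein that marks Sertoli cells in the mouse. It is by far the shortest of the 6, at 5616 bp on chromosome 15, 52040107 to 52045722. The 1 peak, annotated as 3′ UTR, runs from 52044801 to 52045800. Of its 1000 bp, 922 lie in the gene, which is 16.4% of it, and 78 bp run past its end. Chromosome 15 had 16 coding genes with a single peak, Aard among them. That peak was in the 3′ UTR for 9 of them and in an intron for 6, so both classes were common there.

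Pdgfra encodes the alpha receptor of platelet-derived growth factor, through which Leydig cells and their precursors are recruited. It spans 46.9 kb of chromosome 5, 75151322 to 75198206, on the plus strand. Its 1 peak, of 800 bp at 75195601 to 75196400, was annotated as 3′ UTR. It covered 1.71% of the gene and ended 1.81 kb before its end. Introns of Pdgfra, which make up most of its span, held no listed peak. On chromosome 5 the single peak was in an intron in 73 of 129 coding genes with 1 peak, and in the 3′ UTR in 22, so Pdgfra is of the less common kind there.

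Mylk encodes myosin light chain kinase, which starts contraction of smooth muscle and is also made in nonmuscle cells. The gene is the longest of the 6, with 257 kb on the plus strand of chromosome 16, 34745199 to 35002436. Its 15 peaks covered 29200 bp, or 11.4% of it. All but 1 were annotated as intron, and the exception was an exon peak of 2200 bp at 34962601 to 34964800.

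The Mylk peaks lay towards the 3′ end of the gene. Their centres fell in the first 50% of its length for 3 peaks and in the remainder for 12. No peak lay in the first 49.2 kb. The promoter window that RefSeq gives for Mylk starts transcription 39.8 kb inside the gene's extent, and the first peak began 9.45 kb after that point. The widest gap, 48.8 kb, separated the peaks that ended at 34809600 and began at 34858401. The widest peak, 4800 bp at 34997001 to 35001800, was the last, and ended 0.636 kb before the end of the gene. Near that end lies the part of the gene from which a short product, telokin, is known to be made in smooth muscle.

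Each peak is classed by 1 transcript. For Mylk the list named 5 different transcripts over the 15 peaks, and 13 peaks carried a predicted RefSeq model and 2 a curated one. For Kitl it named 2, with 3 peaks each under a predicted and a curated model. The single peaks of Wt1, Aard, Pdgfra and Myh11 all carried a curated transcript. An intron call in Mylk therefore mostly refers to a predicted form of the gene, and a peak of several kilobases can also hold exons that its class does not show.

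A further peak overlaps Mylk but names another gene. It runs from 34957601 to 34960000, is 2400 bp wide, and was annotated as an exon of the long noncoding RNA gene E130310I04Rik. That gene, at 34943175 to 34958994, lies inside Mylk on the opposite strand. The list gives no strand, so RNA of the 2 genes cannot be told apart in that stretch. Counted by overlap, Mylk has 16 peaks over 12.3% of its length, and 19.0% of all coding genes have a peak. With classes inside the gene alone the 6 genes keep all their peaks, and 17.8% of coding genes have one.

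Myh11 encodes the myosin heavy chain of smooth muscle, the motor that the light chain kinase switches on. It spans 97.7 kb of chromosome 16, 14194527 to 14292188. There was 1 intron peak of 2600 bp, at 14246001 to 14248600, near the middle of the gene (54.0% of its length). It covered 2.66% of Myh11, whereas Mylk, on the same chromosome, had 11.4% covered. Per 100 kb of gene, Mylk had 5.83 listed peaks and Myh11 had 1.02.

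RefSeq gives a promoter window of 300 bp for Kitl, Pdgfra and Mylk, and no peak overlaps any of the 3. From the start of transcription the first peak lay 2.18 kb downstream in Kitl, 9.45 kb in Mylk and 43.4 kb in Pdgfra. Sequence under the peaks was not analysed here.

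The narrowest peak in the 6 genes was 200 bp, the widest 4800 bp and the median 1400 bp, the same median as the other 16306 peaks. Interquartile ranges were 800 to 2600 bp in the 6 genes and 615 to 3075 bp in the rest. Chromosomes differ in width, so each gene was set beside its own. The median was 1500 bp for the 6 Kitl peaks and 1000 bp on chromosome 10, and 1800 bp for the 15 Mylk peaks and 1400 bp on chromosome 16. The Myh11 peak was wider than 75.2% of peaks on chromosome 16, while the Pdgfra and Aard peaks were wider than 43.0% and 39.3% on theirs. No peak on chromosome 2 is narrower than the one in Wt1.

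**Figure D2:**
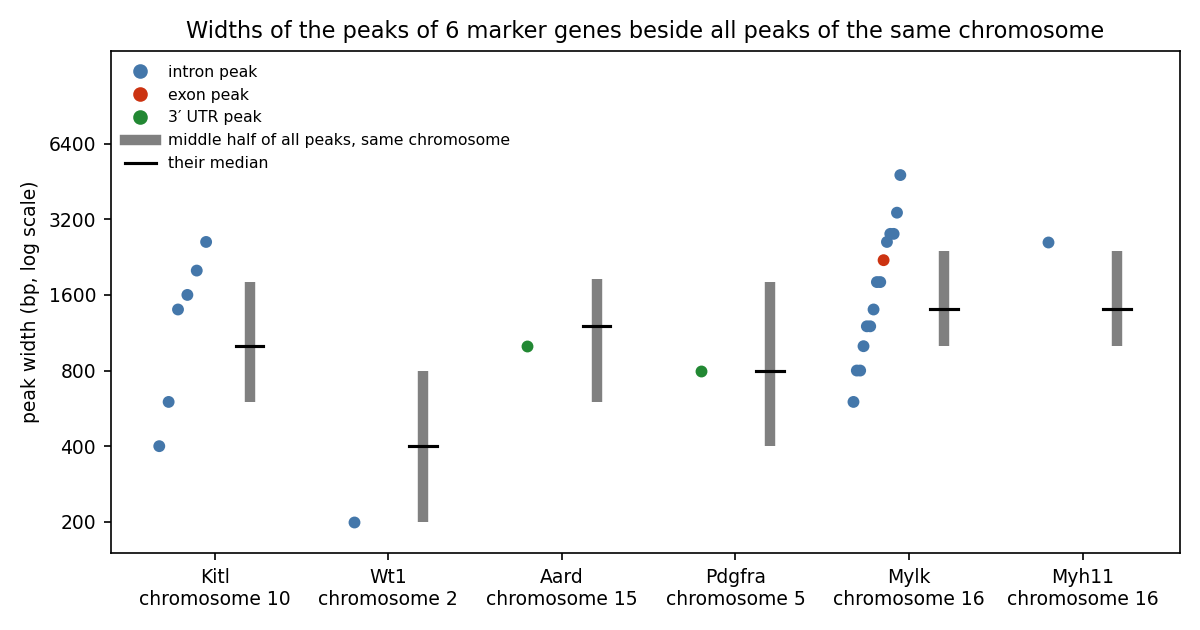
Width of each peak in bp, on a log scale, for the 6 genes (points, coloured by class) beside all peaks of the same chromosome (grey bar, middle 50%, with the median as a black line). Kitl ranges from 400 to 2600 bp and Mylk from 600 to 4800 bp, and the Wt1 peak lies at the lower limit of 200 bp.

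Long genes hold more peaks, and chromosomes differ in how many genes have one. Each gene was therefore set beside the other protein-coding genes of its chromosome with a span within 2-fold of its own. Among these, a peak was found in 116 of 213 genes for Kitl (54.5%), 237 of 459 for Pdgfra (51.6%), 26 of 50 for Mylk (52.0%) and 88 of 152 for Myh11 (57.9%). About as many genes of such length had a peak as lacked one. For Wt1 it was 52 of 491 (10.6%) and for Aard 4 of 241 (1.66%). These 2 stand on chromosomes where few genes have one, at 5.78% of all coding genes on chromosome 2 and 3.87% on chromosome 15, against 34.0% on chromosome 16.

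Among the genes of like span that have a peak, Mylk and Kitl had more peaks than the median, Pdgfra, Myh11 and Wt1 had fewer, and Aard had as many. Of the 26 genes with a peak beside Mylk, 1 had more than its 15, the sorting nexin gene Snx29 with 19, and 1 had the same number, App, the amyloid precursor gene. Their median was 8 peaks. In covered share 3 of the 26 exceeded the 11.4% of Mylk, against a median of 5.96%. The genes nearest to Mylk in span, Spidr and Bbx, had 12 and 13 peaks over 7.30% and 10.1%.

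Of the 116 genes beside Kitl, 13 had more than 6 peaks and 100 had fewer, with a median of 3. Its covered share of 10.1% was exceeded by 18 of them, and their median was 4.39%. Mon2 and Agpat3, nearest in span, had 11 and 3 peaks over 7.82% and 3.36%. Kitl thus lay in the upper part of the distribution in both measures, and its covered share was above that of either of those 2 genes.

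For the 4 genes with 1 peak, none of the genes beside them with a peak can have fewer. More than 1 peak was found in 200 of 237 beside Pdgfra, 60 of 88 beside Myh11, 32 of 52 beside Wt1 and 1 of 4 beside Aard. The covered share of Pdgfra (1.71%) was below the median of 10.9% and was exceeded in 214 genes. That of Myh11 (2.66%) was below 6.58% and was exceeded in 63. For Wt1 (0.425%) the median was 2.21%, and 45 genes exceeded it. Pdgfra, Myh11 and Wt1 were thus thinly covered among the genes of their length that have a peak. Over all genes of their length, with or without a peak, the share was exceeded in 214 of 459 for Pdgfra, 63 of 152 for Myh11 and 45 of 491 for Wt1.

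The genes nearest in span to the other genes varied widely. Rnf212, a crossover gene, had 5 peaks over 14.9% of its length and Git2 had 2 over 2.97%, both nearest to Pdgfra. Ttc3 and Dop1b, nearest to Myh11, had 8 and 2 peaks over 7.10% and 4.26%. Wt1 and Rpn2, a gene of its span, each had a single peak, over 0.425% and 0.424%.

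Aard was in the middle of the few genes like it. The 4 others of its length with a peak on chromosome 15 were Dgat1, Dazap2, Hnrnpa1 and Ankrd54, each with 1 peak apart from Dgat1, which had 3. Aard had 16.4% of its length covered, and the others, in that order, had 62.1%, 22.8%, 11.8% and 10.2%. Dgat1 makes triglycerides, and Hnrnpa1 encodes an abundant RNA-binding protein.

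**Figure D3:**
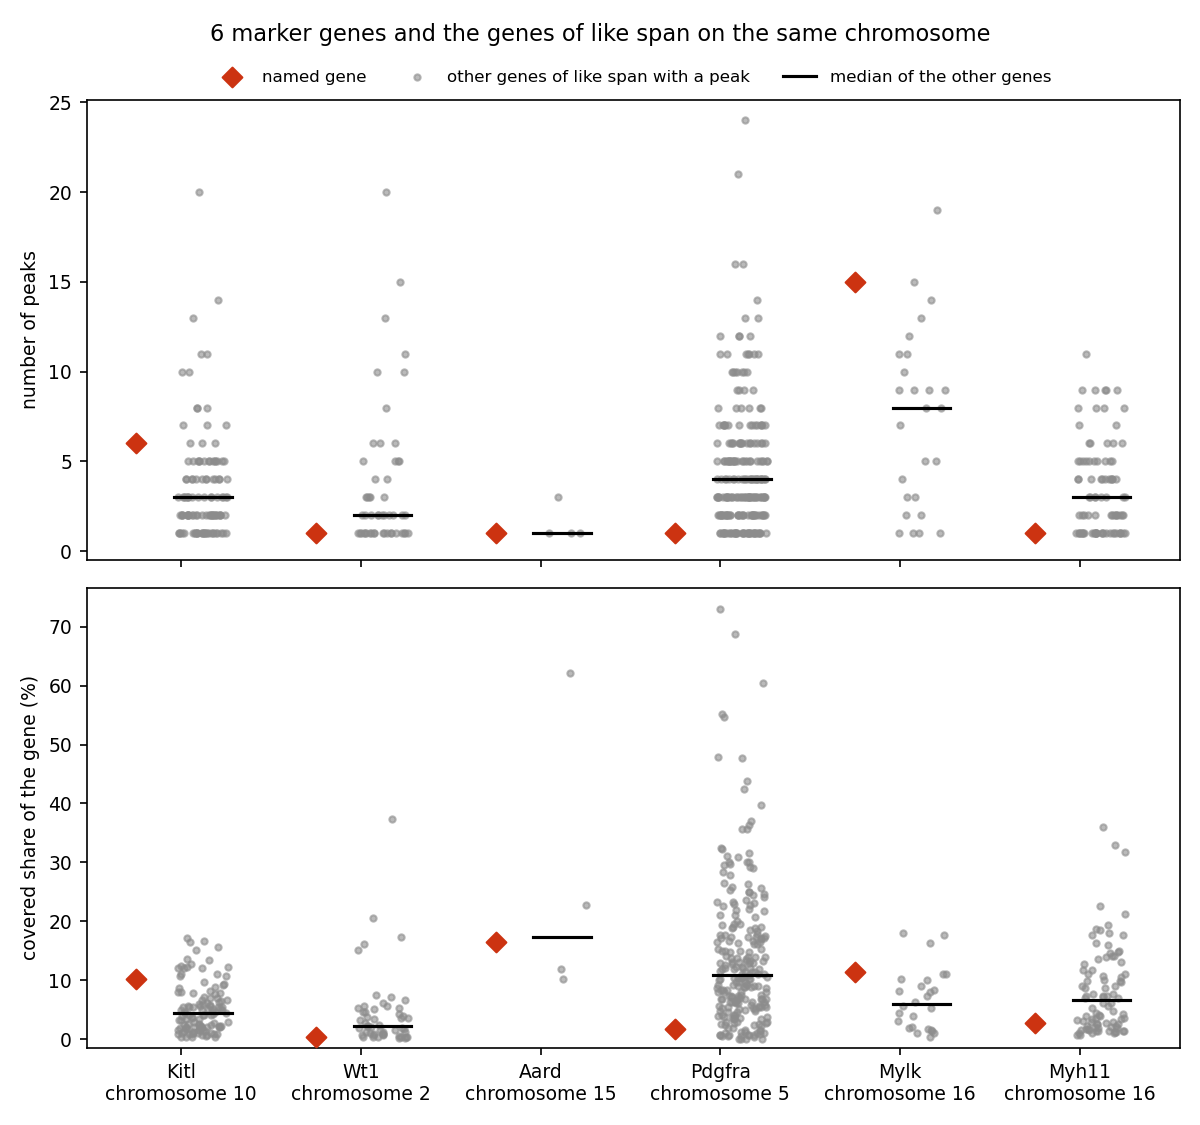
Number of peaks (upper plot) and covered share of the gene in percent (lower plot) for each of the 6 genes (red) beside the other genes with a peak that lie on the same chromosome and have a span within 2-fold (grey, with the median as a black line). Mylk and Kitl lie above the medians of 8 and 3 peaks, and Pdgfra, Myh11 and Wt1 lie below their medians in covered share, which are over genes with a peak.

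The surroundings of the genes differ, with distances measured from the ends of each gene. Aard stands alone: the nearest listed peaks of other genes are 8537 kb before the gene and 6857 kb after it. For the Wt1 gene they are 510 kb before and 5963 kb after. Around Mylk the nearest were only 20.4 kb before, in the 3′ UTR of Ccdc14, and 27.6 kb after, in an intron of Hacd2. Hacd2 and Ccdc14, the coding genes next to Mylk, had 4 and 2 peaks.

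Kitl lies in a gene-poor stretch. The nearest coding genes, Csl and Gm4301, lie 256 and 235 kb away and had no peak, and no peak is listed in the 868 kb before the gene. After it, the nearest was in an intron of Gm35533, at 37.8 kb. Pdgfra and Kit are neighbours on chromosome 5, 377 kb apart, and the Kit peaks were the next after that of Pdgfra. Before Pdgfra the nearest peak, in an intron of Gm19583, lay 10.7 kb from it. The coding genes on either side of Myh11 (Nde1 and Cep20), Wt1 (Eif3m and Them7) and Aard (Gm52217 and Slc30a8) had no peak, nor did Gsx2, the one before Pdgfra.

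The authors' running numbers follow position on every chromosome here, so they show where numbers were left out of the list. From the first to the last peak of Kitl there are 17 numbers, of which 6 are listed and 11 are not. In Mylk there are 30, of which 16 are listed, 15 for Mylk and 1 for E130310I04Rik, and 14 are not. What the missing numbers stood for is not given. Between the nearest listed peaks of other genes there are 11 numbers around Myh11 and 4 around Pdgfra, with 1 listed for each gene. For Kitl the last listed number before its first peak, 18760, is 18748. Numbers in the 868 kb before Kitl, or at its start, were thus also left out. Whether unlisted numbers lay inside Myh11 or Pdgfra is not given. The peaks of Kitl, Mylk, Myh11 and Pdgfra may therefore be part of a longer set. On chromosome 15 the list keeps all 84 numbers from the first to the last, and on chromosome 2 it keeps 89.5%. The numbers just before and after those of Aard and Wt1 are listed and consecutive, so between the distant neighbours named above no other number exists. On chromosomes 10, 5 and 16 the list keeps 20.2%, 27.6% and 30.5%.

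How the 6 genes stand among other markers was described with lists of Sertoli, Leydig and peritubular myoid genes. Counting genes on chromosomes with any peak, 6 of 19 Sertoli markers had one (31.6%, 15.4% to 54.0%), 1 of 7 Leydig markers (14.3%, 2.57% to 51.3%) and 2 of 10 myoid markers (20.0%, 5.67% to 51.0%). In the whole list 18.8% of protein-coding genes on those chromosomes had a peak, and every one of these intervals holds that value. The 3 lists together stood at 9 of 36 (25%, 13.8% to 41.1%), whose interval also holds 18.8%. The 6 genes chosen by having a peak are part of these counts, so they support nothing. Without them 3 of 30 other markers had a peak. Leaving them out removes only genes with a peak, so this count is not read against 18.8% either.

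These 3 were all in the Sertoli list, and Cdh2 and Nr0b1 are described here. Cdh2, N-cadherin, had 12 over 28.7% of its length, of which 11 were in introns and 1 was in the 3′ UTR. Nr0b1, an X-linked nuclear receptor, had 1 exon peak of 2070 bp inside the gene and 2 intergenic ones outside it. The covered share of Cdh2 was larger than that of any of the 6 genes. Its chromosome, 18, had a peak in 37.8% of its coding genes.

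Many defining markers had none. Among Sertoli genes these were Gata1, Amh, Rhox5, Inha, Inhbb and Gja1 on the well covered chromosomes, where at least 10% of coding genes have a peak, and Sox9, Amhr2, Fshr, Dhh, Vim, Sox8 and Espn on others. Of the Leydig list the steroid carrier gene Star, Insl3 and Igf1 lacked a peak on well covered chromosomes, and Cyp17a1, Lhcgr and Nr5a1 on others. Of the myoid list Dcn, Des and Lmod1 did so, as did Acta2, Myl9, Tpm2, Smtn and Itga8 elsewhere. Several are short, such as Amh at 2.44 kb and Insl3 at 1.33 kb. Kitl had 6 peaks over 84.8 kb, whereas Igf1, of 78.8 kb on the same chromosome, had none. On the well covered chromosomes 7 of 19 markers of the 3 lists had a peak, with 35.7% of all coding genes there as the background. On the thinly covered ones it was 2 of 17, Wt1 and Aard, with a background of 2.28%. Both of these were chosen for having a peak, as were 4 of the 7. Neither count is therefore read against its background.

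Markers of other somatic cells were counted in the same way. None of 9 macrophage markers and none of 6 endothelial markers had a peak, with intervals that reach 29.9% and 39.0%. Both intervals hold the 18.8% of all protein-coding genes. On the well covered chromosomes, where 35.7% of coding genes have a peak, these were Csf1r, Lyz2 and Ptprc for macrophages. For endothelium they were Cdh5, Kdr and Flt1. Alas2 was the only one of 4 erythroid genes with peaks, and both of them also overlap Apex2. Alas2 lies on X, where 48.6% of coding genes have a peak. A list of germ cell genes was added after the peaks had been seen. Of its 8 genes, 3 lie on chromosomes without a listed peak and were not counted. Of the 5 others, Kit, Sycp3, Mael and Tex11 had a peak and Dazl did not (80%, 37.6% to 96.4%). That interval does not hold 18.8%, but the genes were picked with the peaks known, so nothing is read from this count. The 4 with a peak lie on well covered chromosomes. Dazl lies on chromosome 17, where 3.02% of coding genes have a peak. Kitl had 6 peaks over 84.8 kb and Mylk had 15 over 257 kb. Sycp3, an axis protein gene of meiosis that spans 13.65 kb, had 1 intron peak of 1000 bp. Mael, a piRNA pathway gene, had 14 peaks, of which 3 were intergenic and 1 was downstream. Tex11, an X-linked gene of meiosis, had 38. Covered shares were 10.1% for Kitl and 11.4% for Mylk. They were 7.33% for Sycp3, 8.81% for Kit, 28.3% for Mael and 63.0% for Tex11. These genes differ in span and chromosome, and the differences in share were not tested.

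**Figure D4:**
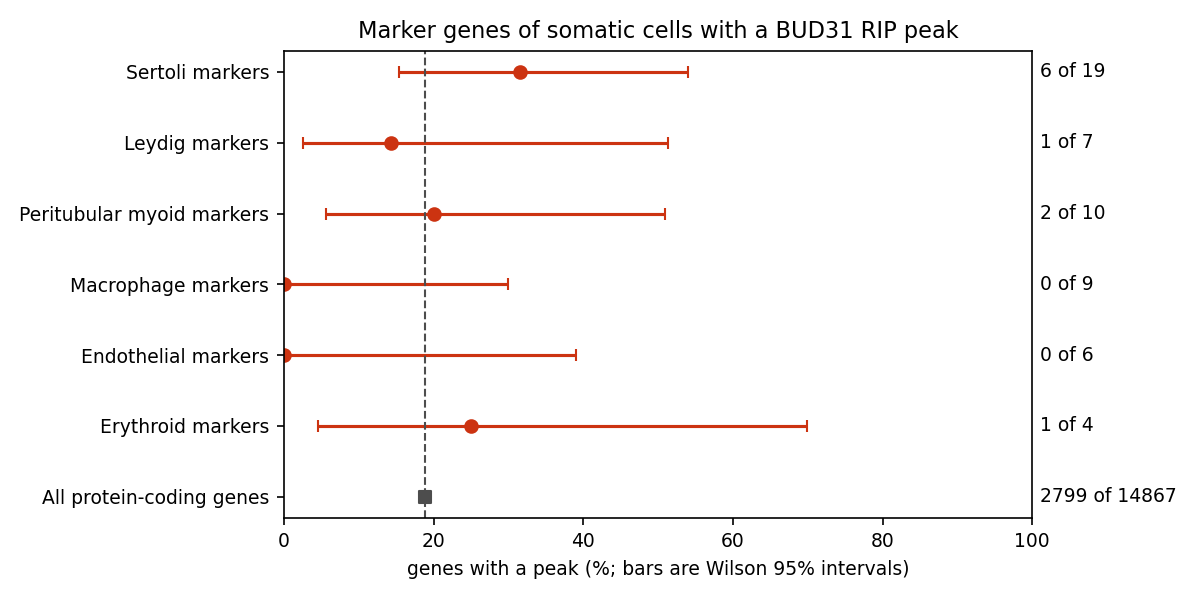
Share of marker genes with a peak in percent for 6 cell types (red, with Wilson 95% intervals as bars), above the share of all protein-coding genes on chromosomes with a peak (grey square and dashed line, 18.8%). Counts stand at the right, and every interval crosses the dashed line. The Sertoli, Leydig and myoid counts include the genes chosen for having a peak.

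Relatives of the 6 genes were counted by family. Of the platelet-derived growth factor genes Pdgfra alone had a peak among the 4 on chromosomes with peaks, and Pdgfa and Pdgfrb, on well covered chromosomes, had none. Of 3 myosin light chain kinase genes there only Mylk had peaks, and Mylk3, the cardiac kinase, had none over 61.4 kb of chromosome 8. Myh11 was the 1 of 11 class II myosin heavy chain genes with a peak. Of the other 10 genes, 9 lie on chromosomes 2, 11 and 15 with few peaks, and Myh15, at 142 kb, shares chromosome 16 with Myh11. Of 7 genes for WT1-binding proteins and early gonad factors, Wt1 and Pawr had peaks, while Cited2 and Lhx9, on well covered chromosomes, had none. Pawr, whose product binds WT1, had 3 in introns over 4.87% of its length. Intervals of these 4 families all hold the 18.8% of all coding genes. Each family was built around a gene chosen for having a peak, so nothing is read from these counts. Without the chosen gene, a peak was found in 0 of 3 growth factor genes, 0 of 2 kinase genes, 0 of 10 myosin genes and 1 of 6 WT1-related genes. Leaving the chosen gene out removes only a gene with a peak, so these counts are not read against 18.8% either. KIT ligand and receptor genes, 2 of 2 with a peak, have an interval of 34.2% to 100%, which does not hold 18.8%. Kitl too was chosen for having a peak, so nothing is read from that interval.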

How the data were processed

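Per the labels, 1 BUD31 RIP library and 1 input library were made, and the deposited data are 1 annotated peak list. The submitters' processing notes name TopHat2 2.0.13 and the mm10 build. How peaks were called against the input, at which threshold and with which annotation is not given in the sources used here. Per the file headers the authors' columns hold positions and annotation only, with no count, fold or score.

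Gene numbers were matched to a RefSeq table of GRCm38.p6, the mm10 assembly, for extent and kind of gene. Strand came from the RefSeq promoter table. A peak belonged to the gene it names, whatever its class. Covered share is the overlap of those peaks with the gene's extent. Intervals are Wilson 95% intervals. Genes and lists were chosen with earlier results of these data known, and the germ cell list after the peaks were seen. The rule for named genes took the 6 genes, every list member with a peak or on a well covered chromosome, the coding genes next to each of the 6, and the 2 genes with a peak nearest in span. Genes that this rule would name but that are missing from the text are not reported here. Other genes were named after their values were seen. Members on chromosomes with no listed peak were not analysed here, which left out 18 of 54 in the 3 testis lists. Alternatives were overlap with the reference table, classes inside the gene, peaks wider than 1 bin, 50% of the peak inside the gene and well covered chromosomes. The overlap function was tested on simulated intervals. Python 3.11.15, numpy 2.4.6, pandas 2.3.3, scipy 1.17.1 and matplotlib 3.10.9 were used.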

Additional observations from a re-analysis of the deposited data

How the results depend on the processing

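Of 40 recomputed values for the 6 genes and the 3 testis lists, 3 moved. The other 37 stayed within 1.5 times the reported count or within the counting interval. Many of these could not move, since all 25 peaks carry classes inside the gene and Wt1 alone has a peak of 1 bin. The total is therefore no measure of robustness. List counts were compared without their denominators, as in 9 of 36 as reported and 7 of 19 on well covered chromosomes. With only peaks wider than 1 bin, Wt1 had 0 peaks and a covered share of 0%, by construction, since its 1 peak is 1 bin wide, and 5 of the 6 genes still had a peak. On the well covered chromosomes alone, 4 of the 6 genes remain, those other than Wt1 and Aard, which the limit of 1.5 times counts as stayed. Without the 6 chosen genes the 3 lists had 3 genes with a peak, a fall forced by removing genes that all have one. Counting peaks by overlap with the reference table changed the number for Mylk alone among the 6, to 16. No paired analysis was possible because the values come from no test, and with 1 library per group none could be left out. Depth is unknown, so a gene without a peak is not shown to be unbound or unexpressed.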
